A study of Mus musculus with 54 samples.

Results

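Duox2, Duoxa2, Nos2, Nox1 and Noxo1 are 5 mouse genes whose proteins make reactive oxygen species or nitric oxide in the lining of the gut. They were taken as a named set of 5 out of 47996 distinct gene names in the mRNA table, and all 5 were also present in every single-cell matrix. Their messages were followed in 16 mRNA libraries and in 4 single-cell samples of the small intestine, out of 54 samples in a series on the microRNA miR-375. The mRNA libraries came from intestinal crypt cells of C57BL/6J mice, sorted for a low level of the reporter Sox9-EGFP, with 4 libraries in each of 4 groups. These groups were mice on a chow diet, mice on a high fat diet, germ-free mice (which carry no microbes) and conventionalized mice (germ-free mice given a microbiota). The labels used here give no ages for these mice, no duration of treatment, and no diet for the germ-free and conventionalized groups. The single-cell samples were separated small intestinal cells of 12 month old mice of strain C57BL6/2J, a wild type (WT) and a miR-375 knockout (KO) in each of 2 sets. The labels do not say whether a sample pools several mice, or in which cells the microRNA was deleted. No feature of the matrices is named for miR-375, so the deletion could not be checked in these cells. Nothing in the labels says that samples of a group came from separate cultures or animals beyond their numbers, so p-values measure only the spread between these samples.

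Duox2 is a dual oxidase, an enzyme of the cell's apical membrane that releases hydrogen peroxide into the gut lumen. It leaves the endoplasmic reticulum only with its maturation factor, which Duoxa2 encodes. Nox1 is the catalytic subunit of another epithelial NADPH oxidase, which makes superoxide, and Noxo1 is the organizer protein that Nox1 needs at the membrane. Nos2 is the inducible nitric oxide synthase, which makes nitric oxide from arginine. Duox2, Duoxa2 and Nos2 are known as genes that the epithelium raises in response to microbes and cytokines.

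Duox2 and Duoxa2 lie next to each other, head to head. In the GRCm38 annotation Duox2 (ENSMUSG00000068452) occupies chromosome 2 from 122279247 to 122298449 on the minus strand, and Duoxa2 (ENSMUSG00000027225) occupies 122298900 to 122302885 on the plus strand, with 450 bases between them. The 250 bases before the start of Duoxa2 fall wholly within that gap and so lie upstream of both genes. They are shown because the messages of the pair varied together across libraries, and were taken from the RefSeq promoter table (GRCm38.p6), which matched 4 of the 5 genes and held no entry for Nos2. Capitals mark a match to the TATA box TATAAA, which starts 30 bases before Duoxa2, and a match to the octamer ATGCAAAT on the opposite strand, which starts 125 bases before it.
Duoxa2 upstream, chr2:122298650-122298899, plus strand: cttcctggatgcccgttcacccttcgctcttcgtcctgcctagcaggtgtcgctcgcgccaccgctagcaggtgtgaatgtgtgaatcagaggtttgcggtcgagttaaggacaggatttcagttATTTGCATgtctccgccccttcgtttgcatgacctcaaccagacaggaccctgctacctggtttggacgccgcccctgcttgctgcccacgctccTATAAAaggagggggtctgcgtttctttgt
Motifs were searched on both strands, and the octamer was chosen after the sequence had been read. The TATA box letters occur in 12.4% and the octamer letters in 1.60% of the 32851 promoter stretches of the same length in the table. No match was found for TTCNNNGAA or CCAAT, which occur in 7.02% and 33.8% of them. A match of letters is a description of the sequence only.

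The other members are single loci on other chromosomes. Nos2 (ENSMUSG00000020826) lies on chromosome 11 from 78920787 to 78960254, Nox1 (ENSMUSG00000031257) on chromosome X from 134086421 to 134221956 and Noxo1 (ENSMUSG00000019320) on chromosome 17 from 24696234 to 24700529. The last 695 bases of Duoxa2 overlap Duoxa1, a gene on the other strand, and the kits named in the labels are not stated to keep strand, so some Duoxa2 counts could belong to Duoxa1. Duoxa1 itself stood at 0 to 22.9 normalized counts in the 16 libraries.

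Library totals ranged from 10680300 to 19117900 normalized counts over the 16 mRNA libraries. Sox9, the gene behind the sorting reporter, was present in all of them, at 2146 to 6705 normalized counts. Summed markers of leukocytes were low (9.68 to 269 for T lymphocytes and 112 to 285 for myeloid cells). The 6 neutrophil markers summed to 36.3 to 64.6 in germ-free and to 4.16 to 72.9 in the other libraries, with S100a8, one of them, at 0 in every library. Stromal and endothelial markers summed to 366 to 824 in the germ-free libraries and to at most 435 in the others. Enteroendocrine markers summed to 127216 to 1378440. In bulk samples, fewer cells of a type and less message per cell cannot be told apart.

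Among mice that differed in their microbes, Duox2 was the member with a called difference. Germ-free libraries held 40.7, 91.9, 30.5 and 10.4 normalized counts of Duox2, and conventionalized libraries held 317.9, 221.4, 137.6 and 182.3. Every germ-free library was below every conventionalized one. The means were 43.4 ± 34.7 and 214.8 ± 76.8 (SD, n = 4 each), a 4.95-fold difference of means and a difference of -2.58 on the log2(normalized count + 1) scale (SE 0.59, limma adjusted p = 0.0409 over 20214 genes). In this comparison 2.24% of all tested genes were called, with 0.292% lower and 1.95% higher. When libraries were omitted in turn, the call was kept without germ-free replicate 2, the highest germ-free library, and was lost in the other 7 fits (adjusted p from 0.050 to 0.147). The difference stayed between -3.06 and -2.05.

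Duoxa2, the partner that Duox2 needs, had values of 52.5, 106.3, 42.3 and 3.35 in germ-free libraries. Conventionalized libraries held 578.4, 103.6, 97.9 and 158.1. The groups overlapped at 1 point, where germ-free replicate 2 exceeded 2 conventionalized libraries. The log2 difference was -2.45 (SE 0.89) and did not pass the test (limma adjusted p = 0.177). Noxo1, the organizer of the Nox1 oxidase, held 2143, 2719, 1058 and 2937 normalized counts in germ-free and 3200, 3309, 3642 and 4837 in conventionalized libraries. These groups did not overlap, yet the log2 difference of -0.84 (SE 0.33) did not pass the test either (limma adjusted p = 0.198). For Duox2 and Noxo1, the 2 members without overlap, the two-sided exact permutation p was 0.0286, the smallest possible with 70 relabelings. Of all 20214 tested genes, 4072 had an unadjusted limma p under 0.05 here, and those without overlap were not counted.

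Nos2 and Nox1 overlapped widely between the same groups. Nos2 held 24.4, 63.6, 124.8 and 99.7 normalized counts in germ-free and 110.7, 153.0, 107.1 and 79.9 in conventionalized libraries, a log2 difference of -0.71 (SE 0.52, limma adjusted p = 0.415). Nox1 held 5.15, 52.1, 54.3 and 0 in germ-free and 16.3, 39.8, 18.5 and 36.4 in conventionalized libraries. The germ-free Nox1 values thus fell at both ends, with a pair above every conventionalized library and a pair below. The log2 difference of -1.21 had an interval from -3.72 to 1.31. All 5 members had a lower fitted value in germ-free libraries, with a median of -1.21 against 0.11 over all tested genes.

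**Figure D1:**
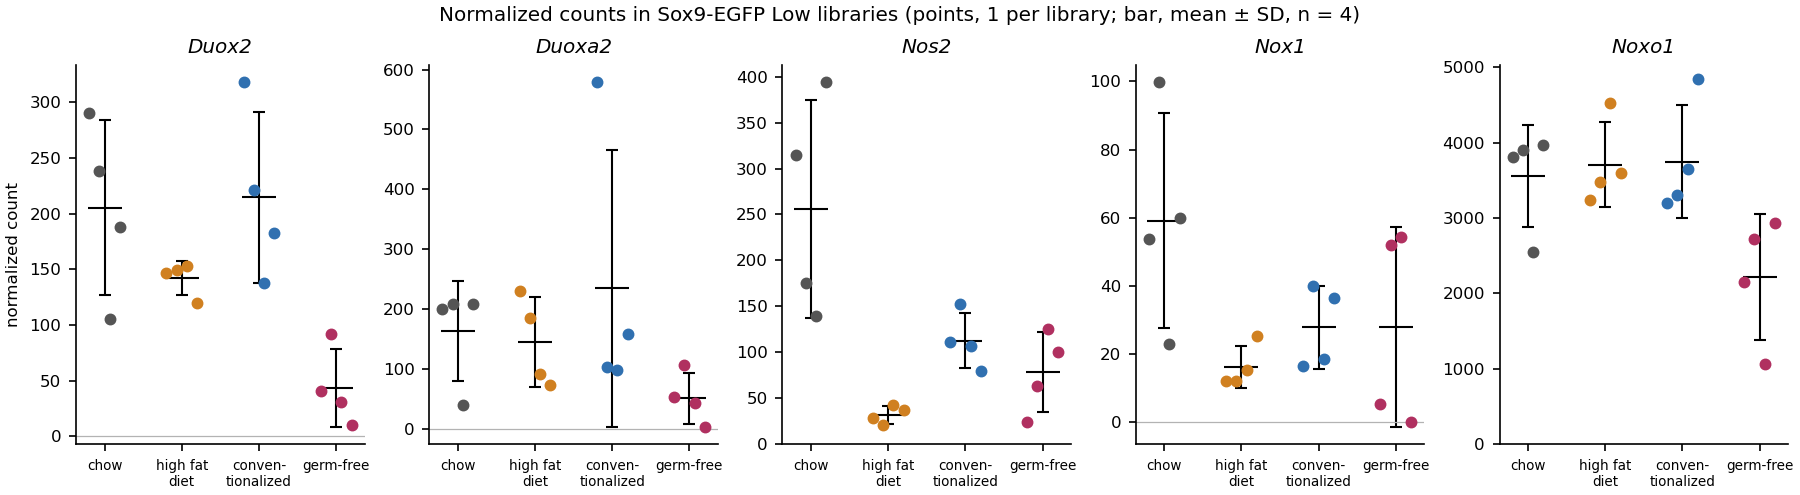
Normalized counts of each gene on the vertical axis for the 4 groups of Sox9-EGFP Low libraries, 1 point per library, with the mean and SD (n = 4) as a bar. Germ-free Duox2 libraries (10.4 to 91.9) lie below all others, and high fat diet Nos2 libraries (20.4 to 42.3) lie below all chow and conventionalized libraries.

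The genes that work with these oxidases were read beside them. Of 12 further oxidase subunits, 8 were tested between germ-free and conventionalized mice, 3 higher and 5 lower, and none was called. Cyba, the membrane partner of Nox1, averaged 1029 in germ-free and 2453 normalized counts in conventionalized libraries (log2 difference -1.43, SE 0.44, limma adjusted p = 0.120). Noxa1, the activator subunit of Nox1, averaged 676 and 1652 (log2 difference -1.50, SE 0.46, limma adjusted p = 0.120). Duox1, the other dual oxidase, stood at 0 to 22.4 in all 16 libraries. Of 13 tested genes of nitric oxide and arginine metabolism, 2 were called, both higher in germ-free mice. They were Arg1, an arginase that uses the same substrate as Nos2 (315 against 89.2, log2 difference 1.84, limma adjusted p = 0.0131), and Gch1, which makes the nitric oxide synthase cofactor tetrahydrobiopterin (3560 against 1024, log2 difference 1.76, limma adjusted p = 0.0255). Of 17 genes that remove peroxide or superoxide, 15 had lower and 2 higher fitted values in germ-free mice, and the single called gene, the secreted peroxidase Gpx3, was higher (10429 against 2573, log2 difference 2.02, limma adjusted p = 0.0215). None of 20 cytokine receptors and regulators was called, with 14 lower and 6 higher.

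Epithelial genes known to respond to microbes had 9 of 12 members tested, of which 8 were lower and 1 was higher without microbes, and their median difference was -1.18. The called ones were the antimicrobial lectins Reg3b and Reg3g, both lower. Reg3g held 764.5, 660.7, 244.2 and 289.1 normalized counts in germ-free and 35649, 5996, 2730 and 14588 in conventionalized libraries, a 30.1-fold difference of means (log2 difference -4.46, limma adjusted p = 0.0129). Marker messages of several cell types differed in the sorted fraction as well. All 12 cycling markers and all 9 stem cell markers had lower fitted values in germ-free libraries, 3 of them called (Mki67, Cdk1 and Cenpf), while all 15 enteroendocrine markers were higher, 4 of them called (Neurod1, Tph1, Scg2 and Ghrl). Summed cycling markers ranged from 4022 to 20513 in germ-free and from 28341 to 36383 in conventionalized libraries, and the part of this shift in the Duox2 difference was not tested.

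On the high fat diet, Nos2 was the member with a called difference. High fat diet libraries held 28.1, 20.4, 42.3 and 36.5 normalized counts of Nos2, and chow libraries held 315.2, 175.2, 139.6 and 393.9. The groups lay far apart, with 139.6 in the lowest chow library and 42.3 in the highest high fat diet library. The means were 31.8 ± 9.59 and 256 ± 119 (SD, n = 4 each), an 8.04-fold difference of means and a log2 difference of -2.89 (SE 0.37, limma adjusted p = 0.0284 over 16421 genes). The two-sided exact permutation p was 0.0286, again the smallest possible, and 4383 of the 16421 genes had an unadjusted limma p under 0.05. Of all tested genes 0.822% were called, 0.615% lower and 0.207% higher. Leaving out 1 library kept the difference between -3.14 and -2.65, and the call was kept without chow replicate 2 or chow replicate 3 and lost in the other 6 fits (adjusted p from 0.0135 to 0.0797 over the 8). Names in another deposited table give the opposite diets for the chow and high fat diet mice numbered 3. Without both of them Nos2 was still called lower.

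Nox1 held 11.9, 12.1, 15.2 and 25.1 normalized counts on the high fat diet and 53.7, 99.7, 22.9 and 59.9 on chow. High fat diet replicate 4 exceeded chow replicate 3, and all other high fat diet libraries were below all chow libraries. The log2 difference was -1.70 (SE 0.47) and did not pass the test (limma adjusted p = 0.0876). The remaining members overlapped between the 2 diets. Duox2 held 146.9, 149.1, 153.0 and 119.8 on the high fat diet and 290.4, 238.0, 105.1 and 188.5 on chow, so its high fat diet values sat inside the chow range (log2 difference -0.44, interval -1.09 to 0.21). Duoxa2 held 230.0, 185.5, 91.1 and 72.9 against 199.97, 207.9, 39.0 and 208.1 (log2 difference -0.07, interval -1.34 to 1.21). Noxo1 held 3236, 3473, 4523 and 3591 against 3802, 3896, 2552 and 3969 (log2 difference 0.07, interval -0.32 to 0.46).

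Other oxidase and nitric oxide genes were read on the same diets. Of 12 further oxidase subunits 7 were tested, 6 lower and 1 higher on the high fat diet, and 2 were called, both lower. The one reported here is Rac2, the small GTPase of the phagocyte oxidase (56.8 against 417, log2 difference -2.91, limma adjusted p = 0.0389). None of 13 nitric oxide and arginine genes was called, and Gch1, the cofactor enzyme, averaged 862 against 2707 (log2 difference -1.50, limma adjusted p = 0.0894). Genes that remove peroxide or superoxide had 14 higher and 2 lower of 16 tested, with none called. Reg3b and Reg3g, called in the germ-free comparison, had fitted differences of -2.07 and -1.24 on the high fat diet and were not called (limma adjusted p = 0.0635 and 0.102).

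Markers of chemosensory tuft cells moved with Nos2. All 11 tuft markers had lower fitted values on the high fat diet, 6 of them called (among them Trpm5, Ltc4s, Avil, Pou2f3 and Il25), and their sum was 1687 to 8956 on the high fat diet and 14957 to 32562 on chow. All 15 enteroendocrine markers were lower too, with sums of 127216 to 326722 and 398834 to 1352640, and none was called. Summed T lymphocyte markers were 9.68 to 16.5 and 42.3 to 104. Summed myeloid markers, from cells known to make Nos2, were 157 to 221 on the high fat diet and 162 to 212 on chow. In the single-cell samples, which came from other mice, tuft-like cells of set 2 held no Nos2 UMI (21 WT and 41 KO cells). Upper limits of the exact intervals were 15.04 and 10.94 UMIs per 1000000. The 24 tuft-like cells of WT set 1 held none either (upper limit 8.67). Tuft-like cells of KO set 1 held 2, or 2.72 per 1000000 (interval 0.329 to 9.82), against 1.90 over all cells of that sample. The part of the tuft, enteroendocrine and T lymphocyte shifts in the Nos2 difference was not tested.

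**Figure D2:**
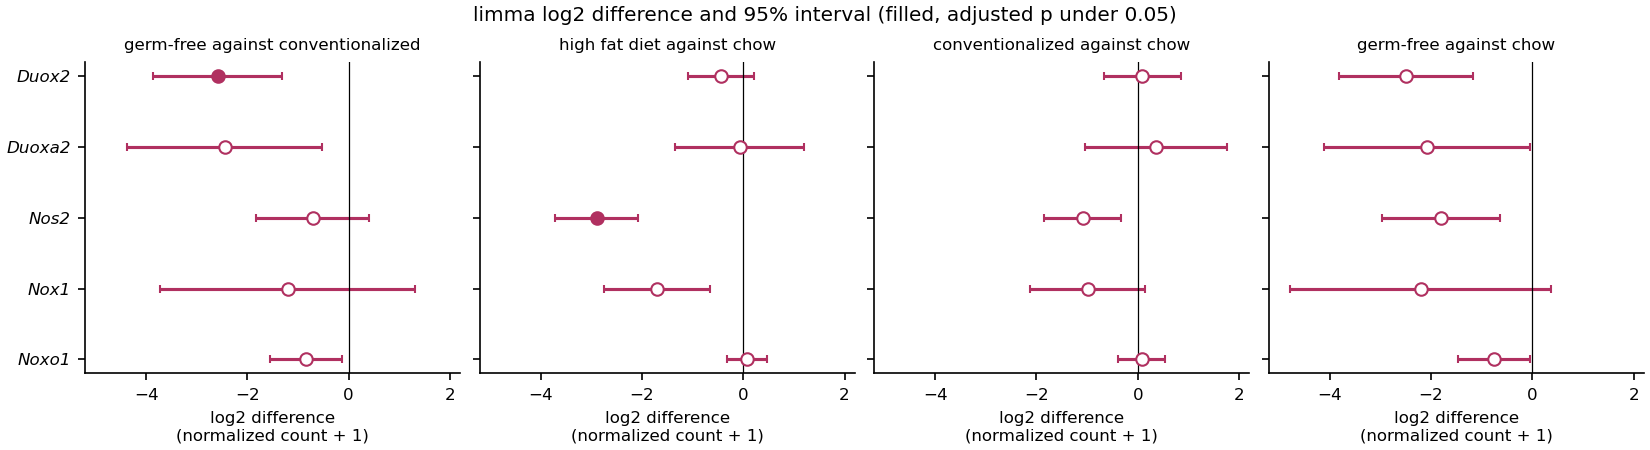
Difference of each gene on the log2(normalized count + 1) scale on the horizontal axis, with its 95% interval, in 4 comparisons of 4 libraries each. The filled points, Duox2 in germ-free against conventionalized mice (-2.58) and Nos2 in high fat diet against chow (-2.89), passed the limma test at an adjusted p under 0.05.

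The chow mice were also set beside the conventionalized and the germ-free mice, though diet, housing and processing group cannot be told apart from microbial status there. These comparisons share their chow libraries with the diet comparison. No member was called between conventionalized and chow mice, where 0.0948% of 17941 genes were called. Duox2 averaged 214.8 and 205.5, with a log2 difference of 0.09 (interval -0.67 to 0.85). Nos2 averaged 112.7 ± 30.2 in conventionalized against 256 ± 119 in chow libraries, a log2 difference of -1.09 (SE 0.35, limma adjusted p = 0.290), and the groups overlapped only where 1 conventionalized library exceeded the lowest chow library. Between germ-free and chow mice limma called none of 19475 genes (0% of those tested), although 5346 had an unadjusted p under 0.05. In that comparison Duox2 differed by -2.49 (SE 0.60, limma adjusted p = 0.0982) and Nos2 by -1.80 (SE 0.53, limma adjusted p = 0.0988), and neither gene's groups overlapped. A limma fit of all 4 groups together called Duox2 (adjusted p = 0.0355) and Nos2 (adjusted p = 0.0462) lower in germ-free than in chow mice.

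Put in order, mean Duox2 was lowest in germ-free libraries, followed by high fat diet, chow and conventionalized libraries, and only the germ-free libraries lay apart from all the others. Duoxa2 followed the same order of group means with overlap between all groups. Nos2 had another order, lowest on the high fat diet, then germ-free, conventionalized and chow. Its high fat diet and germ-free libraries overlapped, as did germ-free with conventionalized, and conventionalized with chow. Nox1 was also lowest on the high fat diet and highest on chow. Noxo1 was lowest in germ-free libraries, and its other group means lay between 3555 and 3747.

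Across the 16 libraries, 1 of the 10 pairs of members varied together beyond the adjusted threshold by both measures. Duox2 and Duoxa2, the enzyme and its maturation factor, had Pearson's r = 0.90 (permutation p = 2e-05, 0.0002 after Benjamini-Hochberg adjustment over 10 pairs) and Spearman's rho = 0.79 (permutation p = 0.00061, adjusted p = 0.0061). Without germ-free replicates 3 and 4, the libraries farthest from the Duox2 median, r was 0.74. After subtracting group means, r was 0.81 within the 8 chow and high fat diet libraries and 0.93 within the 8 germ-free and conventionalized libraries. Nox1 and its organizer Noxo1 showed no such relation (r = 0.06, permutation p = 0.80, adjusted p = 0.85, rho = 0.28, permutation p = 0.29, adjusted p = 0.40), and their r within groups was 0.71 for the diet libraries and -0.47 for the others. Nos2 and Nox1 had rho = 0.73 (permutation p = 0.0021, adjusted p = 0.011) but r = 0.46 (permutation p = 0.069, adjusted p = 0.14), and within groups r was 0.42 and 0.13. Duox2 and Noxo1 had rho = 0.64 (permutation p = 0.0084, adjusted p = 0.028) and r = 0.61 (permutation p = 0.026, adjusted p = 0.065), with r of 0.74 and -0.11 within groups.

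The genes most like each member were listed by Pearson's r over the same 16 libraries among 18681 genes, as a description. For Nos2 they included Ciita (0.83), the master regulator of MHC class II genes, and H2-Aa (0.77), itself an MHC class II gene. For Nox1 they were Gbp6 (0.92), Gm15829 (0.91) and Tnfrsf1b (0.89). Noxo1 was closest to Tgif1 (0.98), Tmprss4 (0.98) and 1110038B12Rik (0.97). Duox2 was closest to AA986860 (0.93), Zfp202 (0.92) and Noc3l (0.92), and Duoxa2 to Gm2a, Got1 and Cyb561a3 (0.93 each).

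In single cells, the number of kept cells was 1185 in WT set 1, 1229 in KO set 1, 3156 in WT set 2 and 3149 in KO set 2. They came from 1209, 1251, 7711 and 7665 barcodes in that order, so most set 2 barcodes were left out. The median mitochondrial share over all barcodes was 5.90%, 5.62%, 40.9% and 37.9%. Median depth was 16299, 15881, 5548.5 and 13551 UMIs per cell in that order. A UMI is a molecular tag that counts each captured message once. WT set 2 was the shallowest sample over all kept cells. In it 1358 cells were T lymphocyte-like, against 799 in KO set 2, while no cluster of set 1 was named so. Over cells of clusters named as epithelial, WT set 2 was instead the deepest, with a median of 23944 UMIs. The others had 16307.5 in KO set 2, 16485.5 in WT set 1 and 16267.5 in KO set 1. The set 1 samples shared 1 kept barcode and the set 2 samples shared 2, and 0 were shared across sets. Shares of cells with a UMI are given beside UMI counts scaled to a total of 1000000 (CPM), with exact 95% intervals that cover counting error only.

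The KO lay on opposite sides of the WT for Duox2 in the 2 sets. In set 1, 131 of 1185 WT cells (11.1%, interval 9.33% to 13.0%) and 211 of 1229 KO cells (17.2%, 15.1% to 19.4%) held a Duox2 UMI. In set 2 the shares were 15.97% (14.7% to 17.3%) of WT and 6.29% (5.46% to 7.19%) of KO cells. In CPM, Duox2 stood at 6.61 in WT and 11.3 in KO of set 1, and at 16.5 in WT and 5.44 in KO of set 2. The ratio of KO to WT was thus 1.71 (1.41 to 2.10) in set 1 and 0.330 (0.287 to 0.379) in set 2. With each cell thinned to 2000 UMIs the shares of set 1 were 0.844% and 2.36%, and those of set 2, after leaving out 313 WT and 409 KO cells that were shallower, were 1.55% and 0.985%. The thinned ratio of KO to WT shares was 2.80 (1.32 to 6.43) in set 1. In set 2 it was 0.637, with an interval of 0.379 to 1.05 that spans 1. Over all samples the edgeR quasi-likelihood test of summed UMIs gave a log2 difference of -0.30 (SE 0.55, adjusted p = 1.0).

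Nos2 and Nox1 had the same opposite signs. Nos2 was held by 0.928% (0.464% to 1.65%) of WT and 3.25% (2.34% to 4.41%) of KO cells in set 1, and by 4.12% (3.45% to 4.87%) of WT and 1.43% (1.04% to 1.91%) of KO cells in set 2. Its CPM were 0.657 and 1.90 in set 1, and 3.83 and 1.36 in set 2, for ratios of 2.90 (1.61 to 5.48) and 0.356 (0.266 to 0.472). Nox1 was scarce, with 1 UMI in WT and 27 in KO of set 1, and 20 in WT and 4 in KO of set 2. Its ratios were 27.2 (4.48 to 1113) and 0.215 (0.0534 to 0.641), and the first rests on a single WT UMI. Thinned to 2000 UMIs, the shares of cells with Nos2 were 0.169% and 0.488% in set 1 and 0.387% and 0.255% in set 2, too close to single UMIs to compare.

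Duoxa2 did not reverse. Its CPM were 6.28 in WT and 5.38 in KO of set 1, a ratio of 0.856 (0.672 to 1.09), and 10.9 in WT and 4.21 in KO of set 2, a ratio of 0.385 (0.327 to 0.452). Both genes of the pair were thus lower in KO than in WT of set 2, and only Duox2 was higher in KO of set 1. The edgeR log2 difference of Duoxa2 was -0.73 (SE 0.33, unadjusted p = 0.0787, adjusted p = 1.0). Noxo1, found in many more cells, was the steadiest member, with 56.1 and 57.0 CPM in WT and KO of set 1, and 54.3 and 45.4 in set 2. The Noxo1 ratios were 1.02 (0.942 to 1.10) in set 1 and 0.837 (0.791 to 0.885) in set 2, where the interval lay below 1. Its edgeR log2 difference was -0.05 (SE 0.29, adjusted p = 1.0). Between 2 KO and 2 WT samples edgeR called 0 of 13535 genes (0% of those tested), with 81 at an unadjusted p under 0.05, and DESeq2 called 8, none of them a member.

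**Figure D3:**
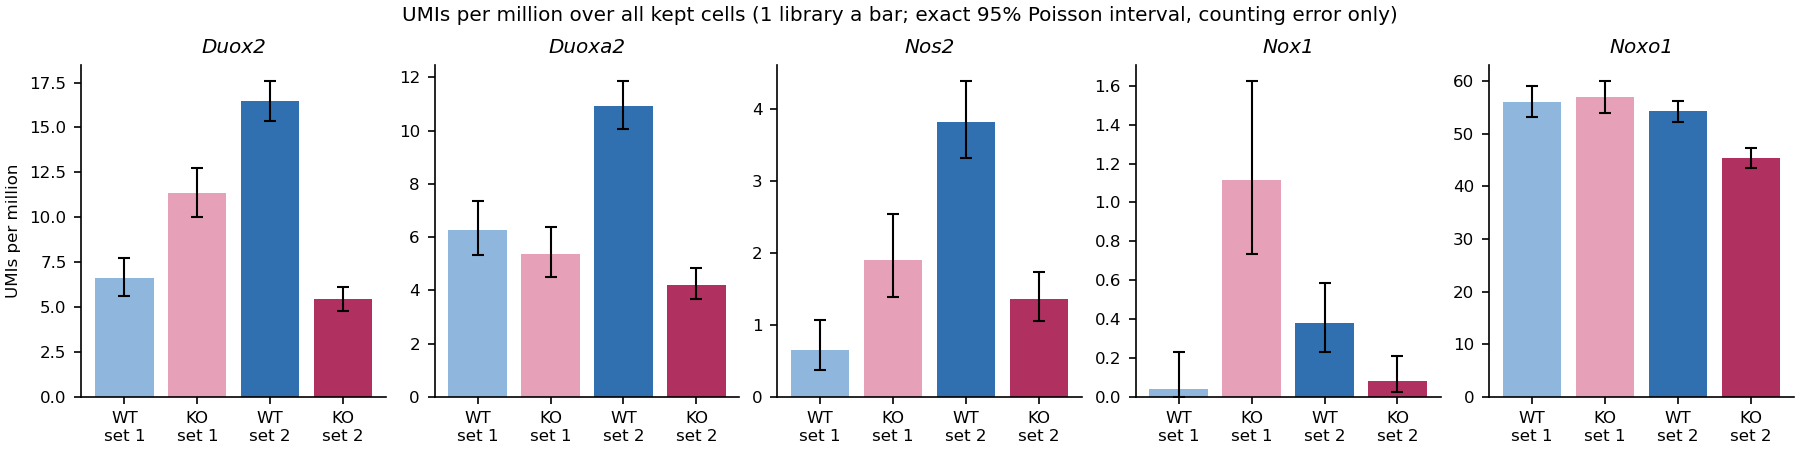
CPM on the vertical axis for each gene in the 4 single-cell samples, 1 bar per library, with an exact 95% Poisson interval for counting error only. Duox2 is higher in KO than WT in set 1 (11.3 against 6.61) and lower in set 2 (5.44 against 16.5), while Noxo1 stays between 45.4 and 57.0.

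Which cells held the messages was read from clusters made within each set and named only by fixed markers. T lymphocyte-like cells, which should lack epithelial oxidases, gave a background share in set 2 of 0.295% of WT and 0.375% of KO cells for Duox2, and of 0.0736% and 0.250% for Nos2, at lower depth (medians of 2854 and 2094 UMIs per cell). Set 1 had no such class. The small myeloid-like class of set 2 stood higher, with Duox2 in 3 of 35 WT cells (8.57%, 40.6 CPM, interval 11.1 to 104) and in none of 50 KO cells, Noxo1 in 3 WT and 9 KO cells (72.5 CPM in KO), and no Nos2 UMI. Duox2 was found in most epithelial classes at higher levels than in T lymphocyte-like cells. In WT set 2 it stood at 26.8 CPM in cycling-like, 18.7 in enterocyte-like, 18.7 in goblet-like, 15.1 in stem-like and 3.72 in Paneth-like cells. KO set 2 stood lower in each of these classes, at 8.06, 5.18, 9.81, 3.75 and 2.85 in the same order. Only the Paneth-like intervals overlapped (2.08 to 6.14 in WT and 1.76 to 4.35 in KO). The enterocyte-like class held different clusters in the 2 genotypes. A cluster low in Duox2 (1.78 CPM in WT and 0.771 in KO), led by Rbp2, Apoa1 and Apoa4, made up 100 of the 776 WT and 357 of the 1023 KO cells of that class. In set 1 the KO was higher in stem-like (12.0 against 3.46) and cycling-like cells (18.1 against 7.45). It was higher in Paneth-like cells with overlapping intervals (5.20 against 2.59). In enterocyte-like (7.54 against 6.70) and goblet-like cells (15.9 against 17.1) it was close to the WT. Clusters of set 1 also split by genotype. An unnamed cluster led by Gsdmc2, Fabp6 and Arg2 held 140 KO and 2 WT cells, with Duox2 at 17.3 CPM, and is not in these class values. The enterocyte-like cluster led by Rbp7, Gsdmc2 and Arg2 held 35 KO and 142 WT cells, with Duox2 at 13.6 CPM. Over named epithelial clusters 1 by 1, Duox2 was lower in the KO in 11 of 12 clusters of set 2, with no UMI in the other, and higher in 11 of 14 clusters of set 1. Clusters of 1 library share that library and are not replicates.

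The opposite directions were also seen with only the cells of named epithelial clusters counted. There the Duox2 ratio of KO to WT was 1.60 (1.31 to 1.97) in set 1 and 0.303 (0.260 to 0.352) in set 2. For Nos2 the same ratios were 2.96 (1.60 to 5.76) and 0.357 (0.264 to 0.477). Some regional identity genes also differed between these cells. Fabp6, a bile acid binding protein of the ileum, stood at 160 and 278 CPM in the epithelial clusters of WT and KO set 1, and at 812 and 1355 in those of set 2. Apoa4, an apolipoprotein of the proximal intestine, stood at 304, 256, 208 and 1149 in the same order. Lct, the lactase of the proximal intestine, stood at 83.5, 54.4, 46.7 and 111.9, and Slc10a2, the ileal bile acid transporter, at 0.672, 1.49, 3.75 and 3.04, so that in set 2 it was not higher in the KO as Fabp6 was. Gata4, a transcription factor of the proximal intestine, varied least, from 29.5 to 34.6. These 5 genes were chosen with results known, and their part in the knockout differences was not tested.

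**Figure D4:**
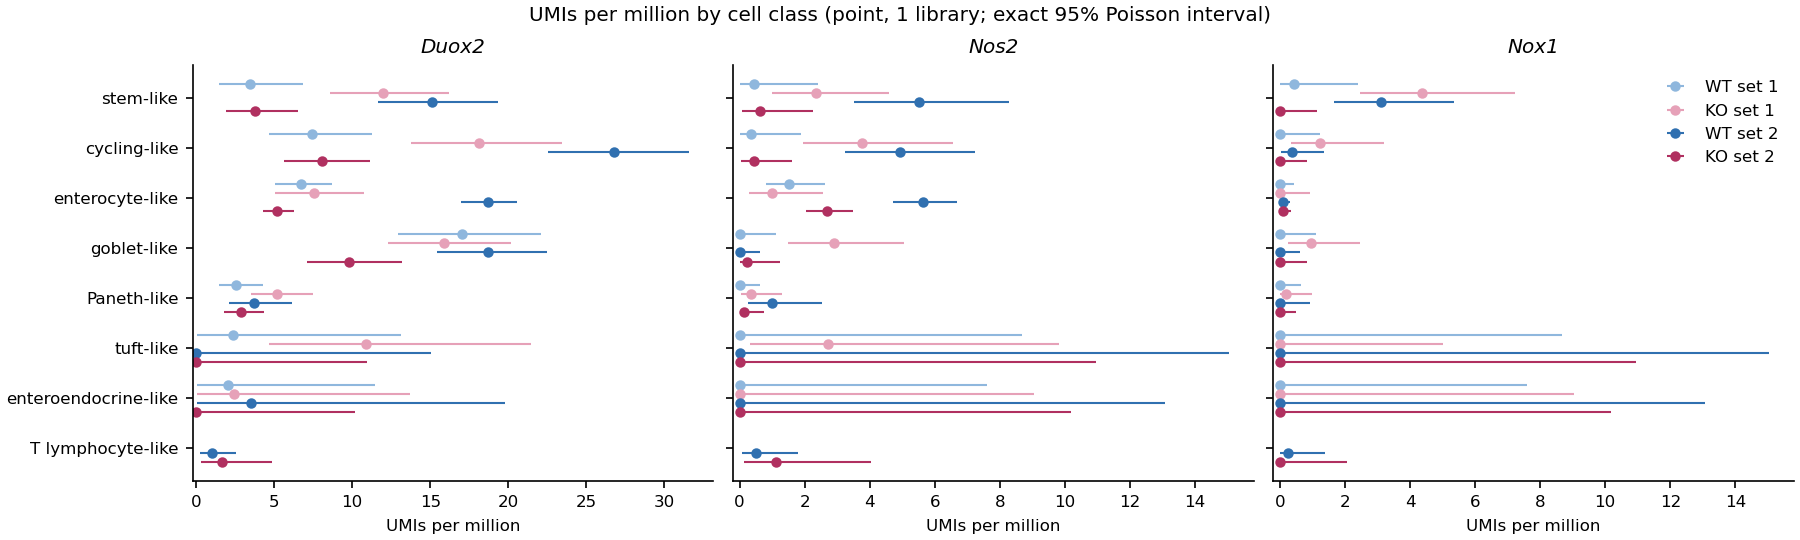
CPM on the horizontal axis for Duox2, Nos2 and Nox1 by cell class, 1 point per library, with an exact 95% Poisson interval. In stem-like and cycling-like cells, WT set 2 and KO set 1 lie to the right of WT set 1 and KO set 2 for Duox2 (15.1 and 12.0 against 3.46 and 3.75 in stem-like cells).

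Nos2 was highest in 1 kind of enterocyte in set 2. The enterocyte-like cluster led by Fabp6, Reg3b and Slc51b, genes of the ileal enterocyte and of microbial defence, held 118 Nos2 UMIs in 202 cells, or 22.3 CPM. These were 71 of the 202 Nos2 UMIs of WT and 47 of the 67 of KO, so most WT Nos2 UMIs lay in other cells. The other named epithelial clusters of set 2 reached at most 7.48 CPM in WT and 1.02 in KO. Within that cluster the genotypes lay within counting error for Nos2, at 28.7% of cells in both, with 20.8 CPM in WT and 25.1 in KO. It held 115 WT and 87 KO cells, so with 71 and 47 UMIs part of the set 2 difference in UMIs lay inside it. Larger differences in Nos2 level lay outside it, for example at 5.85 and 1.02 in the cluster led by Reg3a. They were 7.48 and 0.617 in the cluster led by Rbp2, Apoa1 and Apoa4, and 5.53 and 0.624 in stem-like cells. Duox2 was also highest in the Fabp6 cluster of set 2, with 32.8 CPM, and stood at 37.3 in WT and 24.6 in KO. In set 1 the Fabp6-led cluster had 96 cells, with Nos2 at 5.16 and Duox2 at only 1.47 CPM. Enterocyte-like cells held 13 of the 16 Nos2 UMIs of WT set 1 but 4 of the 46 of KO set 1. In that KO sample goblet-like cells held 12, cycling-like cells 12 and stem-like cells 8. The enterocyte-like Nos2 level of set 1 was 1.53 CPM in WT and 1.00 in KO, with overlapping intervals, so the higher KO total lay in other classes. Enterocyte-like clusters led by Apoa4 had little Duox2 in both sets, with 1.08 CPM in set 2 and 1.40 in set 1. A cluster's level against the rest is a description, since the clusters were made from the same cells.

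**Figure D5:**
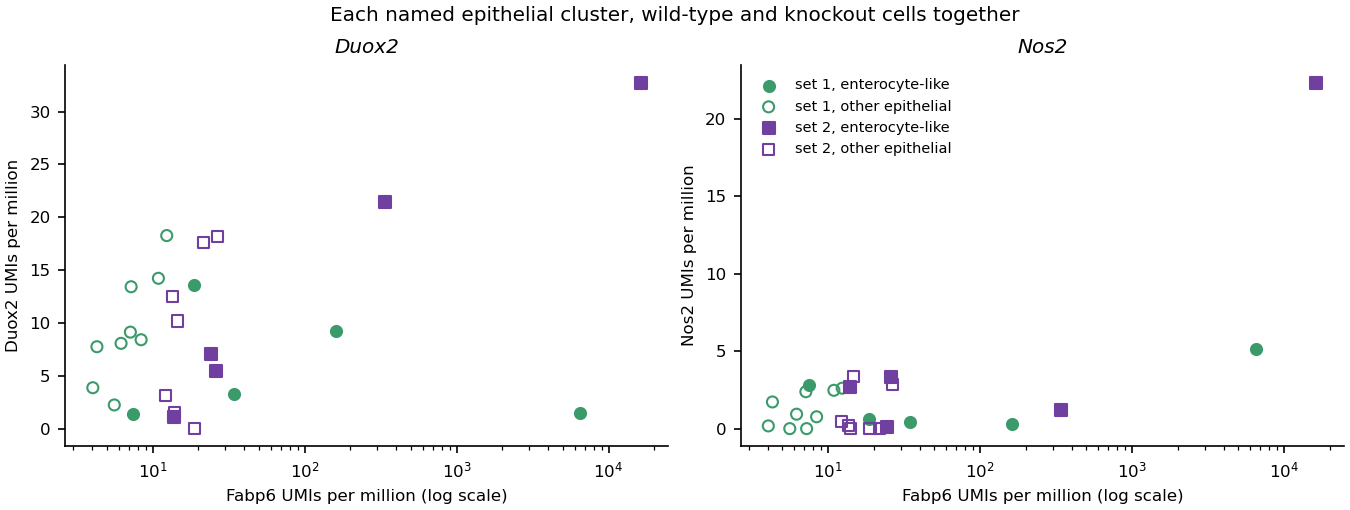
Duox2 and Nos2 CPM on the vertical axes against Fabp6 CPM on a log axis, 1 point per named epithelial cluster, with WT and KO cells together. The set 2 cluster with the most Fabp6 has the highest Duox2 (32.8) and Nos2 (22.3), while the set 1 cluster with the most Fabp6 has 1.47 and 5.16.

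Nox1 sat mainly in stem-like cells, which held 15 of the 27 Nox1 UMIs of KO set 1 and 13 of the 20 of WT set 2. None of the 196 stem-like cells of KO set 2 held a Nox1 UMI, and a count of 0, read as at most 3 cells, allows a share of up to 1.53%. Noxo1 was found in every named epithelial class. Its highest cluster was an enterocyte-like cluster of set 1 at 125.6 CPM, and Paneth-like cells were low in CPM, at 16.2 in set 1 and 31.0 in set 2. These Paneth-like cells were deep, with medians of 72990 and 37132 UMIs. In set 2 the median was 62696.5 UMIs in WT and 34730.5 in KO, with Noxo1 at 30.5 and 31.3 CPM. Shares of Paneth-like cells with Noxo1 were 66.3% in WT and 63.8% in KO of set 1, and 71.6% and 58.9% in set 2. Stem-like cells had similar shares, at 66.2%, 62.6%, 72.0% and 61.2% in the same order. The stem-like cells of set 2 were also deeper in WT, with medians of 20495.5 and 13929.5 UMIs. Enteroendocrine-like cells of set 2 were below Paneth-like cells in CPM, with 1 UMI in 25 WT cells (3.55 CPM) and 5 in 47 KO cells (13.8 CPM, interval 4.48 to 32.2). Those of set 1 stood above Paneth-like cells, at 30.9 CPM in WT and 46.6 in KO. In T lymphocyte-like cells of set 2 the Noxo1 share was 1.62% in WT and 0.501% in KO.

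Duoxa2 was found more often among cells that held Duox2 than among all cells, though most Duox2 cells lacked a Duoxa2 UMI. In WT set 2, 191 cells had both, or 37.9% of the 504 cells with Duox2 and 54.1% of the 353 with Duoxa2. In KO set 2, 54 cells had both, or 27.3% of the Duox2 cells and 35.8% of the Duoxa2 cells. The set 1 samples held 23 such cells in WT (17.6% of the Duox2 cells) and 32 in KO (15.2%). Of all cells, 10.6% in WT and 8.95% in KO of set 1 held Duoxa2, and 11.2% and 4.80% in set 2. Nos2 cells held Duox2 in 45.4% of cases in WT set 2 and in 24.4% in KO set 2, where 15.97% and 6.29% of all cells held it. In set 1 the order of the genotypes was the opposite, with 18.2% of 11 WT and 45.0% of 40 KO Nos2 cells, where 11.1% and 17.2% of all cells held Duox2. Cells with more UMIs are more likely to show any pair of genes, so these shares follow depth as well.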

How the data were processed

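Expression was analysed in 16 mRNA libraries (4 in each of 4 groups) and 4 single-cell samples; groups came from the labels. The mRNA table holds a signal, normalized counts that the authors deposited without stating the scaling, and libraries used SMARTer Ultra Low Input with Nextera XT, per the labels. The single-cell matrices hold UMI counts as deposited, from 10x Genomics libraries per the labels. The submitters' processing notes name Cell Ranger, STAR, Salmon, DESeq2 and mm10 without roles, and the set 2 headers give software version 3.0.1. The 381 of 48440 mRNA entries with no gene name (0.034% to 0.080% of a library) were left out.

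Normalized values were tested with limma 3.58.1 (R 4.3.3, eBayes with a trend) on log2(value + 1), which understates changes of low genes, at a mean of at least 10 over the 2 groups fitted, two-sided, with Benjamini-Hochberg adjustment over all tested genes and a threshold of 0.05. Exact permutation tests were run for single genes, and correlations used 100000 permutations. Cells were kept at 500 genes, 1000 UMIs and under 25% mitochondrial UMIs, and the highest Scrublet scores (0.8% per 1000 barcodes) were removed as doublets. Each set was clustered in scanpy 1.11.5 (2000 variable genes, 30 components, 15 neighbours, resolution 1), and a cluster was named from at least 3 markers raised 2-fold. UMI sums per sample were tested with edgeR 4.0.16 (TMM, filterByExpr), with DESeq2 1.42.0 as an alternative. The pairs of single-cell samples share a set number in the labels, and deviations from the genotype means correlated at 0.70 within sets. Both test scripts were checked on simulated data. Small RNA and APC files were not used, and a few genes of the lists and the naming rule are not reported here.

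Called genes of each context list were named, apart from those not reported here, with at most 4 others by highest mean or largest germ-free difference. Called cell type markers were named after their values were seen. Members and lists were chosen with earlier results of these data known. Alternatives varied the pseudocount, filter, scaling, fit, replicate block and left-out libraries.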

Additional observations from a re-analysis of the deposited data

Results flagged for a closer look

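Among 20 groups of 4 mRNA libraries (5 genes in 4 groups), 3 held a library far from the other 3 by a test of gaps, where chance gives about 1 in 20. Duoxa2 was lowest in chow replicate 3 at 39.0 normalized counts, and Noxo1 was lowest in the same library at 2552. Names in another deposited table give the opposite diet for that mouse, as said above, so its group is in doubt. Duoxa2 was highest in conventionalized replicate 1 at 578.4.

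The ratio of knockout to wild-type CPM lay on opposite sides of 1 in the single-cell sets for 4 genes, with 1 sample per genotype in each set, and the difference between sets was not tested. Duox2 had 1.71 in set 1 and 0.330 in set 2. Nos2 had 2.90 and 0.356, Nox1 27.2 and 0.215, and Noxo1 1.02 and 0.837. The set 1 interval for Noxo1 spans 1 (0.942 to 1.10). In named epithelial clusters its ratios were on the same side, at 0.955 and 0.796, and by share of cells they were 0.984 and 1.04.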

How the results depend on the processing

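Duox2 (germ-free against conventionalized) and Nos2 (high fat diet against chow) kept their direction and their call under every planned pseudocount, filter, scaling and fit, and lost the call only in the fits without 1 library given above. Counts of called genes moved more. With all 4 groups in 1 fit they were 1672 for germ-free against conventionalized, 33 for high fat diet against chow, 26 for conventionalized against chow and 754 for germ-free against chow. Without the filter on low values the last 3 counts were 317, 39 and 1, and at a mean of at least 50 the count for conventionalized against chow was 31. Omitting 1 library gave 1 to 684, 0 to 2590, 0 to 6 and 0 genes in these 4 comparisons, and without both mice numbered 3 the diet comparison gave 12.

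The mRNA replicate numbers did not pair the libraries: correlations of same-numbered deviations ran from -0.35 to 0.46, and not every library correlated best with its own number. With the replicate block 271 genes were called for high fat diet against chow, 165 for conventionalized against chow and 2907 for germ-free against chow, where Duox2, Nos2 and Noxo1 were then called (adjusted p = 0.0305, 0.0444 and 0.0411). In single cells the block by set called 0 genes, as the fit without it did, with 437 against 81 genes at an unadjusted p under 0.05. DESeq2 called 8.

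Small differences turned sign. Quantile normalization gave 0.12 for Duoxa2 and -0.15 for Noxo1 on the diets, and leaving out both mice numbered 3 gave -0.18 for Noxo1. Omitting 1 library gave -0.66 to 0.21 for Duoxa2 and -0.081 to 0.13 for Noxo1 on the diets. For conventionalized against chow it gave -0.20 to 0.29 for Duox2, -0.23 to 0.64 for Duoxa2 and -0.073 to 0.15 for Noxo1. In the single-cell sums it gave -1.07 to 0.22 for Duox2, -0.95 to 1.17 for Nos2, -1.37 to 3.63 for Nox1 and -0.35 to 0.20 for Noxo1, the lone sample being assumed to vary like the other genotype.

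In set 2 the ratio of KO to WT shares of cells moved in named epithelial clusters (chosen after seeing the data). It was 0.273 for Duox2, 0.289 for Duoxa2 and 0.752 for Noxo1. The WT cells of those clusters were deeper, with a median of 23944 UMIs against 16307.5 in KO. Without the mitochondrial limit the Noxo1 ratio was 0.960. Thinned to 5000 UMIs, the ratios were 0.342 for Duox2 and 0.868 for Noxo1, against 0.637 and 1.10 when thinned to 2000. The cause of these shifts was not tested. Depth limits Nos2 and Nox1 most, with at most 202 and 27 UMIs in a sample. All 10 correlations kept their sign and their side of the threshold under median-of-ratios scaling.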
